A study of Mus musculus with 64 samples.

Results

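Expression of 7 transcriptional regulators, Tcf7, Lef1, Id2, Id3, Tcf3, Tcf4 and Tcf12, was followed in 64 mouse RNA-seq libraries of regulatory T (Treg) cells and of cells with an inactive Foxp3 allele. The genes were taken by name from the 55809 genes counted in each library, and all 7 passed the filter of a mean of at least 10 read pairs in every fit. The study asked what Foxp3, the lineage factor of Treg cells, does to gene expression when it is removed from existing Treg cells or restored in cells that lack it. Levels are given as CPM, the read pairs of a gene relative to all read pairs counted in that library.

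In the removal experiment all mice carried Foxp3-AID, a Foxp3 allele fused to an auxin-inducible degron that also carries a ZsGreen reporter and Cre recombinase, and all received the ligand 5-ph-IAA for 7 days. ROSA26-TIR1(F74G) mice also express, in cells with that Cre, a plant ubiquitin ligase that binds the degron, and ROSA26-WT mice lack it. Adult heterozygous females gave CD73-negative nascent Treg cells of the thymus and active (CD62L low) Treg cells of spleen and lymph nodes, with 3 TIR1 and 3 WT libraries of each. Infants, hemizygous Foxp3-AID males per the paper and treated from soon after birth, gave spleen and lymph node Treg cells, with 4 libraries titled TIR1 and 4 titled WT. Unlike the heterozygous females, such males have no Treg cells that use another Foxp3 allele. The paper reports severe autoimmune disease in neonates after longer degradation, and the part of inflammation in the infant values was not tested. In the restoration experiment, heterozygous Foxp3-LSL females carried a loxP-flanked Thy1.1-STOP cassette before a Foxp3-GFP reading frame on 1 allele, so that functional Treg cells using the other allele stayed in the same animals. Cells with Cd4-CreERT2 (plusFoxp3) lose the cassette after 4-hydroxytamoxifen (4-OHT) and littermates with Cd4-WT (minusFoxp3) keep it after the same treatment. Treated plusFoxp3 cells were sorted as GFP-positive cells and minusFoxp3 cells as GFP-negative, Thy1.1-positive cells. The groups therefore differ in the Cre transgene and in the sorting gate as well as in Foxp3. Resting (CD62L high) and active cells were collected untreated (day 0) and at 3, 7, 14 and 28 days, with 2 libraries per group, beside 2 libraries per state of untreated Foxp3GFP Treg cells. Totals of counted read pairs ran from 27753211 to 34029692 for adult degron cells, from 33704114 to 55801009 for infants and from 35097257 to 57419138 for the other 44 libraries.

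Several labels and libraries limit what follows. For the 12 adult degron libraries, the library name in each file belongs to a sample of the other genotype than the recorded one, and the library name was used. In all 12 the name given to the deposited table holds the same genotype as that library name. With the recorded genotype each TIR1 against WT difference below has the opposite sign. For infants, title and genotype field disagree, so the direction of that contrast is that of the titles only. Foxp3 mRNA does not settle these labels. The degron acts on the protein, although the paper reports slightly lower Foxp3 expression after degradation in resting adult Treg cells. By library name and title, the log2 difference of Foxp3 mRNA (TIR1 against WT) was −0.05 in thymic, −0.42 in active and −0.06 in infant cells. None of these passed with edgeR. The infant library titled WT replicate 4 stood apart from the other 3 of its group. In 5 active minusFoxp3 libraries Siglech, a gene of plasmacytoid dendritic cells, lay above 10 CPM. Foxp3 itself followed the labels of the restoration experiment, at 44.3 to 81.5 CPM in all minusFoxp3 libraries, 50.7 to 80.7 CPM in untreated plusFoxp3 libraries and 426 to 615 CPM in plusFoxp3 libraries from day 3 on. The T cell genes Cd3e, Cd3d, Cd3g, Cd4 and Cd5 were read in every group, and of 6 genes of double-positive thymocytes Rag1, Rag2 and Ptcra were at 0 in all 6 thymic libraries. The other genes of that list were read there, Cd8b1 at 46.9 to 58.9 CPM, Cd8a at 2.73 to 8.55 CPM and Dntt at 0.736 to 7.03 CPM, and the list summed to 55.3 to 68.9 CPM in thymic, 11.1 to 20.6 CPM in active degron and 15.9 to 21.5 CPM in infant libraries.

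Tcf7 encodes TCF1, which with LEF1 (Lef1) forms the lymphoid branch of the TCF/LEF family, proteins that bind DNA through a high-mobility-group box and act with beta-catenin or with Groucho corepressors. They are known for T lineage commitment in the thymus and for the naive and stem-like states of mature T cells. Tcf3 (E2A), Tcf4 (E2-2) and Tcf12 (HEB) are, despite similar symbols, unrelated E proteins of the basic helix-loop-helix class, which bind E boxes as dimers. Id2 and Id3 encode helix-loop-helix proteins without the basic region, which pair with E proteins and keep them off DNA.

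The Id genes are short and each has a single start in the RefSeq promoter table. Id2 lies on the minus strand of chromosome 12, 25143798 to 25147139, and Id3 on the plus strand of chromosome 4, 135870808 to 135873066, in GRCm39, the build of the counted annotation. Because the results turn on these genes, and E boxes are the sites that Id proteins keep E proteins from, the 250 bases before each start are shown. They are given 5′ to 3′ in the orientation of the gene. They come from RefSeq on GRCm38.p6, at chr12:25096093-25096342 for Id2 and chr4:136143572-136143821 for Id3, and capitals mark E boxes (CANNTG, which reads the same on both strands).
Id2: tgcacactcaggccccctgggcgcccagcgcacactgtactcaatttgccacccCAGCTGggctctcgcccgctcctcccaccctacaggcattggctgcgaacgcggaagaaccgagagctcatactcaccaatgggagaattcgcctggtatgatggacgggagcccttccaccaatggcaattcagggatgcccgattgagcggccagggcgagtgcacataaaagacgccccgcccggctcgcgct
Id3: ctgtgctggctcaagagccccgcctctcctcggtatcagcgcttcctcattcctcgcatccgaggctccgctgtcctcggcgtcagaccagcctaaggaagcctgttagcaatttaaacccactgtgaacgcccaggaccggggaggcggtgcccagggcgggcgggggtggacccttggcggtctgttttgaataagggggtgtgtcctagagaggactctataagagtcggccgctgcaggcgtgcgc
The Id2 window holds 1 E box and the Id3 window holds 0, while 66.2% of 32851 RefSeq promoters of this length hold at least 1. The letters CTTTGAA and CTTTGAT, forms of the TCF site, and TGTTTAC, a form of the forkhead site, searched on both strands, occurred in neither window nor in the promoters of Tcf7, Lef1, Tcf3 and Tcf12. They are found in 4.46%, 3.21% and 3.17% of all these promoters. These other members lie on chromosomes 11 (Tcf7, 52143198 to 52174158), 3 (Lef1, 130904120 to 131018005), 10 (Tcf3, 80245348 to 80269481) and 9 (Tcf12, 71749970 to 72019153). The position of Tcf4 is not reported here, and its promoter was not searched. Lef1 shares 1208 of its 8788 exon bases with Lef1os1, and without strand the reads of those bases cannot be assigned to either gene.

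Per kilobase of annotated exon, Tcf7 was the highest of the 7 genes in every thymic, infant and resting group and in active Foxp3GFP Treg cells, with 503 ± 37.5 CPM per kb (SD, n = 3) in thymic WT cells. Id2 led in both active degron groups and in 8 of the 11 active groups of the restoration experiment. Tcf12 and then Tcf4 were the lowest in all 28 groups. Annotated exon length covers all isoforms and is longest for Tcf4 and Tcf12, which lowers their values on this scale.

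Tcf7 was lower in plusFoxp3 cells of both states after 4-OHT. In resting minusFoxp3 cells Tcf7 was at 1202 and 1727 CPM on day 0, 1513 and 1622 on day 3, 1543 and 1604 on day 7, 1478 and 1808 on day 14, and 1858 and 1783 on day 28. In resting plusFoxp3 cells it was at 1887 and 1868 CPM on day 0, 1126 and 1146 on day 3, 819 and 969 on day 7, 942 and 945 on day 14, and 707 and 763 on day 28. From day 3 on all 8 plusFoxp3 libraries lay below all 8 minusFoxp3 libraries, while on day 0 the plusFoxp3 libraries were the higher ones. Averaged over days 3 to 28 the difference was −0.82 (SE 0.08) on the log2 scale, a level 0.566-fold that of minusFoxp3 cells, with an edgeR adjusted p of 1.78e-05. By day it was −0.40 on day 3 (adjusted p = 0.414), −0.83 on day 7 (0.0969), −0.76 on day 14 (0.0828) and −1.29 (SE 0.17) on day 28 (0.00115), so that only day 28 passed with edgeR, while DESeq2 also passed days 7 (0.00318) and 14 (0.00747). The change of the effect from day 3 to day 28 was −0.89 (SE 0.23, adjusted p = 0.518). Resting Foxp3GFP Treg cells had 476 and 443 CPM, below every other resting library, and differed from untreated minusFoxp3 cells by −1.66 (SE 0.17, adjusted p = 4.11e-05). Their difference from day 28 plusFoxp3 cells was −0.67 (SE 0.17, adjusted p = 0.345, and 0.0354 without the count filter). In bulk RNA, fewer cells that express a gene and less RNA of it per cell cannot be told apart.

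Active cells started from a lower Tcf7 level. Active minusFoxp3 libraries had 651 and 815 CPM on day 0, 845 and 1051 on day 3, 463 and 781 on day 7, 902 and 808 on day 14, and 1101 and 1007 on day 28. Active plusFoxp3 libraries had 1072 and 1148 CPM on day 0, 519.7 and 554 on day 3, 417 and 428 on day 7, 375 and 349.7 on day 14, and 359 and 404 on day 28. On each treated day the plusFoxp3 libraries were the lower pair, and on day 0 they were again the higher pair. The mean effect was −0.99 (SE 0.11, adjusted p = 2.44e-05), and the day effects were −0.77, −0.52, −1.23 and −1.46, of which those of day 14 (adjusted p = 0.0115) and day 28 (0.00158) passed. Without the 5 minusFoxp3 libraries with Siglech above 10 CPM, a choice made after seeing the data, the day effects were −0.96, −0.13, −1.31 and −1.55, with an adjusted p of 0.723 on day 7, where minusFoxp3 replicate 2 is left out. Leaving out any of the 4 libraries of day 14 raised that adjusted p to between 0.0553 and 0.19. Active Foxp3GFP Treg cells had 480.2 and 329 CPM, near the 349.7 to 554 CPM of the treated plusFoxp3 libraries and −0.83 (SE 0.22, adjusted p = 0.0214) from untreated minusFoxp3 cells. That call was lost without active GFP Treg replicate 2 (0.252) or without day 0 minusFoxp3 replicate 2 (0.14). The higher Tcf7 of untreated cells with the Cre transgene was +0.35 in resting (adjusted p = 0.467) and +0.61 (SE 0.22) in active cells (0.999), and it ran against the direction seen after 4-OHT.

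**Figure D1:**
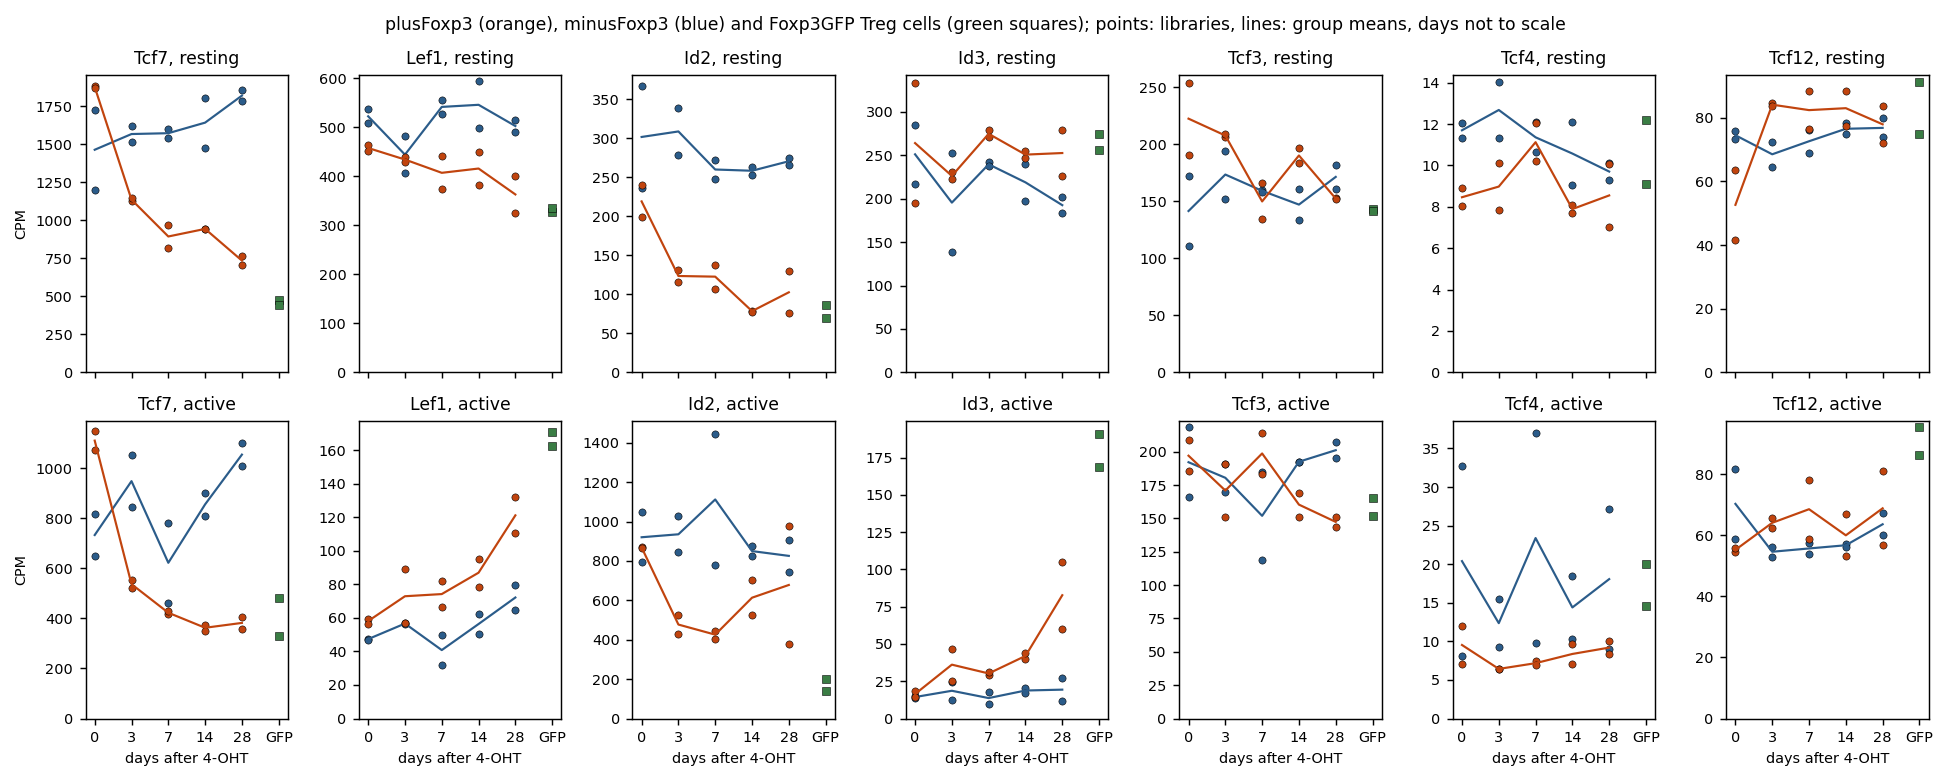
CPM of each gene (vertical axes, from 0, scaled per panel) against days after 4-OHT (horizontal axis, not to scale, with Foxp3GFP Treg cells at the right) in resting (top) and active cells (bottom). Points are single libraries, lines join group means, plusFoxp3 is orange, minusFoxp3 blue and Foxp3GFP Treg cells green; Tcf7 and Id2 fell below minusFoxp3 cells in resting cells after day 0, and Id3 rose in active plusFoxp3 cells to 60.1 and 105 CPM on day 28.

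Lef1 moved in opposite directions in resting and active cells. Resting minusFoxp3 libraries had 407 to 594 CPM and resting plusFoxp3 libraries 324 to 449.7 CPM over days 3 to 28, ranges that overlap. The mean effect in resting cells was −0.30 (SE 0.08, adjusted p = 0.0306), with single days between −0.45 and 0.03 and none of them passing. This call is weak: leaving out any of 12 of the 16 libraries in turn gave adjusted p-values of 0.0568 to 0.125, and 0.0715 came without the count filter. In active cells the same gene was scarcer. Active minusFoxp3 libraries had 56.8 and 56.4 CPM on day 3, 31.8 and 49.8 on day 7, 62.5 and 50.1 on day 14, and 64.6 and 79.6 on day 28. Active plusFoxp3 libraries had 89.1 and 56.7 CPM on day 3, 66.7 and 81.7 on day 7, 78.5 and 95.3 on day 14, and 110.3 and 132 on day 28. From day 7 on the plusFoxp3 pair was the higher one on each day. There the mean effect was +0.68 (SE 0.11, adjusted p = 0.000733), or 1.60-fold, and kept its direction on every treated day (0.42, 0.90, 0.63 and 0.76), although no single day passed with edgeR. The test of the difference between the states gave +0.96 (SE 0.13, adjusted p = 0.000138).

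Lef1 of Foxp3GFP Treg cells lay below that of untreated minusFoxp3 cells in the resting state and above it in the active state. Resting Foxp3GFP Treg cells had 327 and 335 CPM against 508 and 537 in untreated minusFoxp3 cells (−0.65, SE 0.15, adjusted p = 0.0268, and 0.0698 to 0.202 when any of the 4 libraries was left out). Active ones had 162 and 170.5 CPM against 47.6 and 47.1 (+1.84, SE 0.22, adjusted p = 2.5e-05). On day 0, before 4-OHT, the Lef1 values of plusFoxp3 cells already lay below those of minusFoxp3 cells in resting (−0.20, adjusted p = 0.637) and above them in active cells (+0.31, adjusted p = 0.999).

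Id2 was the member with the largest fall in resting cells. Resting minusFoxp3 libraries had 367 and 237 CPM on day 0, 279 and 339 on day 3, 272 and 248 on day 7, 253 and 264 on day 14, and 275 and 266 on day 28. Resting plusFoxp3 libraries had 199 and 239.6 CPM on day 0, 116 and 131 on day 3, 138 and 107 on day 7, 78.9 and 77.9 on day 14, and 129.7 and 75.4 on day 28. From day 3 on the groups did not overlap, and the lowest minusFoxp3 library (248 CPM) was well above the highest plusFoxp3 library (138 CPM). The mean effect was −1.36 (SE 0.11, adjusted p = 3.54e-06), or 0.390-fold, and the day effects were −1.26, −1.10, −1.68 and −1.39. Days 14 (adjusted p = 0.00351) and 28 (0.00758) passed with edgeR, and DESeq2 also passed days 3 (0.000258) and 7 (0.0025). The day 14 call was lost without plusFoxp3 replicate 1 (0.0601), and the day 28 call without either minusFoxp3 library or plusFoxp3 replicate 2 (0.0544 to 0.074). Resting Foxp3GFP Treg cells had 69.4 CPM, the lowest of the 22 resting libraries, and 86.3 CPM, within the 75.4 to 129.7 CPM of the day 14 and day 28 plusFoxp3 libraries, a difference of −1.94 (SE 0.23, adjusted p = 0.000162) from untreated minusFoxp3 cells.

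In active cells Id2 was more abundant and more variable. Active minusFoxp3 libraries had 1048 and 793 CPM on day 0, 844 and 1027 on day 3, 1446 and 778 on day 7, 876 and 824 on day 14, and 908 and 744 on day 28. Active plusFoxp3 libraries had 869.5 and 867 CPM on day 0, 427 and 527 on day 3, 447 and 405 on day 7, 703 and 523 on day 14, and 976 and 380.3 on day 28. The plusFoxp3 pair was the lower one on days 3, 7 and 14, whereas on day 28 the pairs overlapped. The mean effect was −0.75 (SE 0.18, adjusted p = 0.0162), which became 0.0524 without day 14 plusFoxp3 replicate 2, and no single day passed. The day 28 plusFoxp3 library with 976 CPM also had 199 CPM summed over 6 NK and CD8 cell genes against 47.6 CPM in the other, and the part of those cells in its Id2 was not tested. Active Foxp3GFP Treg cells had 139 and 203 CPM, the lowest of the 22 active libraries of this experiment. They differed by −2.40 (SE 0.37, adjusted p = 0.000347) from untreated minusFoxp3 cells and by −1.99 (SE 0.37, adjusted p = 0.00638) from day 28 plusFoxp3 cells. The latter call was lost without GFP Treg replicate 1 (0.139) or without day 28 plusFoxp3 replicate 1 (0.164), which left −1.14.

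Id3 showed the reverse in active cells and little in resting cells. Active minusFoxp3 libraries had 15.1 and 13.7 CPM on day 0, 24.5 and 12.7 on day 3, 9.57 and 17.9 on day 7, 20.4 and 17.2 on day 14, and 11.9 and 26.9 on day 28. Active plusFoxp3 libraries had 18.3 and 14.6 CPM on day 0, 46.9 and 25.4 on day 3, 29.4 and 31.1 on day 7, 39.9 and 44.1 on day 14, and 60.1 and 105 on day 28. On each treated day the plusFoxp3 pair was the higher one, with the closest approach on day 3, where 25.4 stood against 24.5 CPM. The mean effect was +1.37 (SE 0.19, adjusted p = 0.00028), or 2.58-fold. Only day 28 passed on its own, at +2.12 (SE 0.40, adjusted p = 0.00768), and it was lost without minusFoxp3 replicate 1 (0.184) or plusFoxp3 replicate 2 (0.1). Active Foxp3GFP Treg cells had 191 and 168 CPM, above every other active library of this experiment, a difference of +3.66 (SE 0.42, adjusted p = 1.79e-05) from untreated minusFoxp3 cells.

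Resting cells had 139 to 252 CPM of Id3 in minusFoxp3 and 222 to 279 CPM in plusFoxp3 libraries of days 3 to 28, with a mean effect of +0.28 (SE 0.13, adjusted p = 0.27). Resting Foxp3GFP Treg cells had 275 and 256 CPM, which was +0.10 (SE 0.25, adjusted p = 0.951) from untreated minusFoxp3 cells. The effect was larger in active than in resting cells by 1.08 (SE 0.24, adjusted p = 0.0172).

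**Figure D2:**
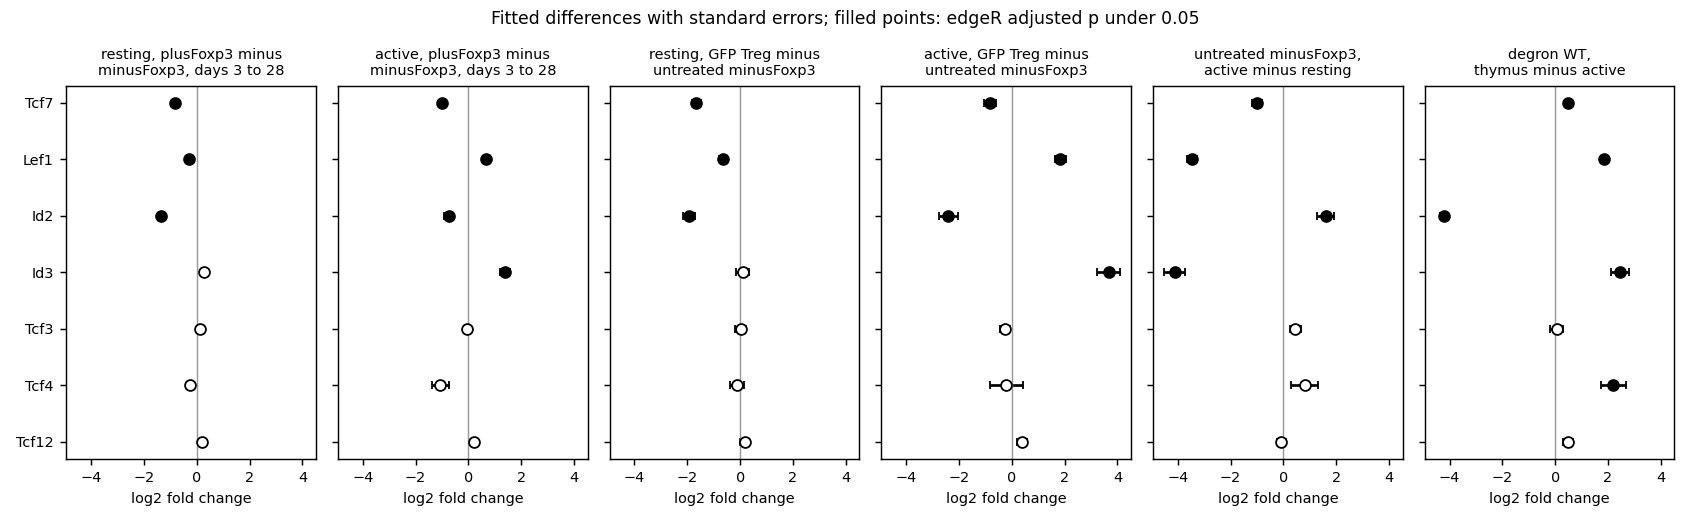
Fitted log2 fold changes (horizontal axes, one scale for all panels) with standard errors for the 7 genes in 6 comparisons, each named above its panel. Filled points passed an edgeR adjusted p of 0.05; Lef1 lies left of 0 in resting and right of 0 in active cells in both kinds of comparison, and Id2 lies left of 0 in all 4 comparisons of Foxp3-expressing with minusFoxp3 cells.

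The balance of the inhibitors was read as the ratio of Id2 to Id3, each per kilobase. In resting cells the ratio was 0.768 to 1.79 in minusFoxp3 libraries and 0.198 to 0.432 in plusFoxp3 libraries of days 3 to 28, and 0.185 and 0.248 in Foxp3GFP Treg cells. In active cells it was 20.3 to 111 in minusFoxp3 libraries and 2.65 to 15.3 in plusFoxp3 libraries of the same days, and 0.536 and 0.885 in Foxp3GFP Treg cells. The treated plusFoxp3 and minusFoxp3 libraries did not overlap in either state. Without 4-OHT the plusFoxp3 ratios were 0.438 and 0.903 for resting cells, and 35.0 and 43.6 for active ones. No test was made of the ratio.

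**Figure D3:**
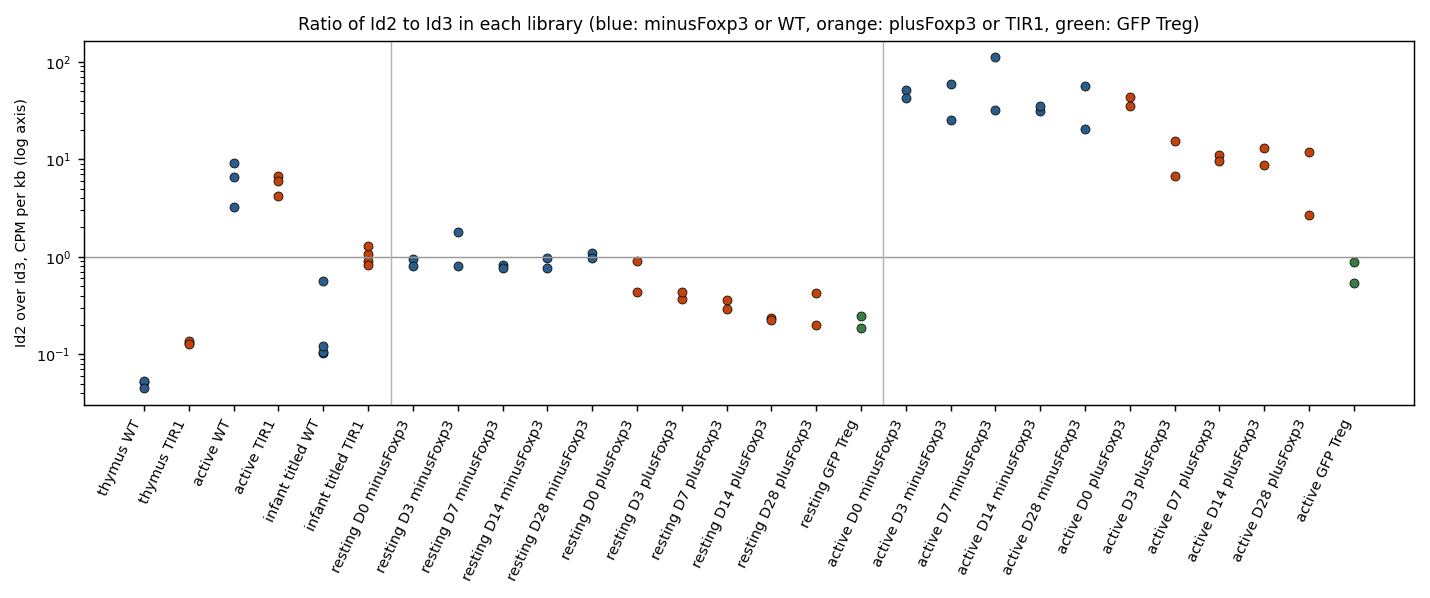
Ratio of Id2 to Id3 in CPM per kb (vertical log axis) in each of the 64 libraries (points), by group; blue is minusFoxp3 or WT, orange plusFoxp3 or TIR1 and green Foxp3GFP Treg. Thymic libraries span 0.0449 to 0.138, and active minusFoxp3 libraries span 20.3 to 111.

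The E protein genes Tcf3 and Tcf12 passed no edgeR test on all libraries. Tcf3 lay between 111 and 254 CPM in all 44 libraries of the restoration experiment, and all 21 pairs of neighbouring groups in the order of means overlapped. Its mean effects were 0.12 (SE 0.10) in resting and −0.07 (SE 0.10) in active cells, with adjusted p-values of 0.601 and 0.825. Tcf12 lay between 41.6 and 95.4 CPM, with 20 of 21 neighbouring groups overlapping, and mean effects of 0.18 (SE 0.09, adjusted p = 0.334) and 0.21 (SE 0.09, adjusted p = 0.244). Neither gene passed with edgeR in any of the 30 comparisons of these data. Leaving out single libraries gave calls for Tcf3 in 3 and for Tcf12 in 1 of the comparisons. Both were called on day 0 of resting cells without plusFoxp3 replicate 2 (0.81, adjusted p = 0.0394, and −0.87, adjusted p = 0.00808). The other calls of Tcf3 came on day 7 of active cells without minusFoxp3 replicate 2 (0.78, adjusted p = 0.0281) and between active and resting untreated minusFoxp3 cells without resting replicate 2 (0.81, adjusted p = 0.0286).

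Tcf4, a gene that plasmacytoid dendritic cells use at high levels, varied within the active minusFoxp3 groups. Its values there were 8.07 and 32.7 CPM on day 0, 15.4 and 9.29 on day 3, 9.73 and 37.0 on day 7, 10.3 and 18.5 on day 14, and 8.95 and 27.2 on day 28. Active plusFoxp3 libraries had 6.40 to 12.0 CPM. The 5 minusFoxp3 libraries with 15.4 to 37.0 CPM of Tcf4 were the same 5 that had 22.8 to 125 CPM of Siglech, 6.13 to 51.2 CPM of Klk1 and 12.2 to 67.5 CPM of Ly6d. The other 5 had 8.07 to 10.3 CPM of Tcf4 and 2.37 to 5.05 CPM of Siglech, and the 10 active plusFoxp3 libraries had 0.174 to 0.671 CPM of Siglech. Over the 10 active minusFoxp3 libraries log2 Tcf4 and log2 Siglech had a Pearson r of 0.964, as a description. The mean effect on Tcf4 was −1.07 (SE 0.32, adjusted p = 0.0577 with edgeR and 0.032 with DESeq2) and −0.31 (SE 0.18, adjusted p = 0.413) without the 5 libraries, a choice made after seeing these values. Without the same libraries the mean effects on Tcf7, Lef1, Id2 and Id3 were −0.99, 0.74, −0.95 and 1.75, with adjusted p-values of 0.000111, 0.00395, 0.0177 and 0.000282. The part of dendritic cells in the Tcf4 values was not tested. In resting cells Tcf4 lay between 7.05 and 14.0 CPM, with a mean effect of −0.26 (SE 0.13, adjusted p = 0.309).

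**Figure D4:**
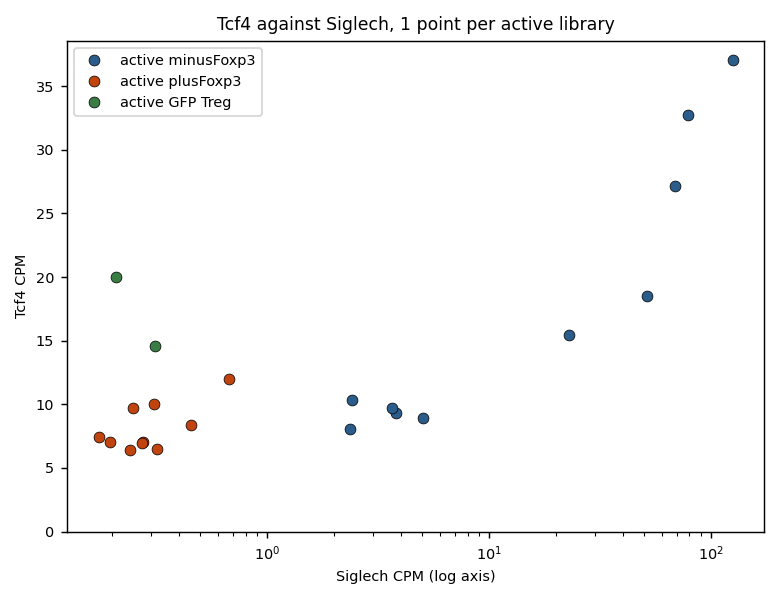
CPM of Tcf4 (vertical axis, from 0) against CPM of Siglech (horizontal log axis) in the 22 active libraries of the restoration experiment, 1 point per library and 1 colour per kind of cell. The 5 minusFoxp3 libraries with Siglech above 22 CPM hold the highest Tcf4 values of minusFoxp3 cells, up to 37.0 CPM.

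The counts of called members were read against all genes. Averaged over days 3 to 28, 3 of the 7 were lower and 0 higher in resting cells, where 4.73% of 20520 genes were called, 1.73% as lower. In active cells 4 of the 7 were called, Tcf7 and Id2 lower and Lef1 and Id3 higher, where 6.22% of 20776 genes were called. On single days of resting cells 0 members passed on days 0, 3 and 7 (0.00487%, 0.0487% and 0.0585% of genes called), 1 on day 14 (0.268%) and 2 on day 28 (0.945%). On days 0, 3 and 7 of resting cells 2, 2 and 3 members had an unadjusted edgeR p under 0.05 (10.8%, 11% and 5.71% of genes), and DESeq2 called 0, 1 and 2 (0.219%, 1.09% and 0.673%). On single days of active cells 0 passed on days 0, 3 and 7 (0.00481%, 0.274% and 0.568%), 1 on day 14 (0.732%) and 2 on day 28 (1.85%). On days 0, 3 and 7 of active cells 1, 3 and 6 members had an unadjusted p under 0.05 (4.58%, 7.4% and 13%), and DESeq2 called 0, 0 and 2 (0.0818%, 1.23% and 2.38%). Without day 7 minusFoxp3 replicate 2 alone, which leaves 1 minusFoxp3 library, the effects on that day were 1.26 for Lef1, −1.72 for Id2, 1.70 for Id3 and 0.78 for Tcf3. Between untreated minusFoxp3 and Foxp3GFP Treg cells 3 members were called in resting cells (2.91% of genes) and 4 in active cells (10%). Between Foxp3GFP Treg and day 28 plusFoxp3 cells 0 were called in resting cells with edgeR (0.0341%, with 1 at an unadjusted p under 0.05, 3.96%, and 0 with DESeq2, 0.283%) and only Id2 in active cells (2.01%). The effect differed between the states for 2 members, Lef1 and Id3, against 1.82% of 20790 genes. The resting groups of days 3 to 28 did not overlap for 2 members, Tcf7 and Id2, against 1.44% of genes. The pooled active groups of those days overlapped for all 7 members, against 1.38% of genes that did not. With 2 libraries a side on single days, non-overlap was common. It held on days 0, 3, 7, 14 and 28 for 31.5%, 51.8%, 31.3%, 40.9% and 42.3% of genes and 5, 5, 5, 6 and 5 members in resting cells, and for 30.3%, 34.9%, 38.6%, 44.1% and 42.2% of genes and 3, 5, 6, 6 and 4 members in active cells. The change of effect from day 3 to day 28 and the state difference of the day 28 effect passed for 0 members with edgeR (0% of genes for the change in resting cells, 0.0915% for that in active cells and 0.0818% for the state difference). At an unadjusted p under 0.05 these had 2, 1 and 3 members (7.58%, 6.66% and 5.58% of genes), and DESeq2 called 0, 0 and 1 (0.219%, 1.01% and 0.322%). MinusFoxp3 cells of day 28 and day 0 differed for 0 members with edgeR in either state (0%), with 0 and 2 at an unadjusted p under 0.05 (3.66% and 2.64%) and 0 with DESeq2 (0.0292% and 0%).

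The level summed over Mki67, Top2a, Cdk1, Ccnb1 and Birc5 was 227 to 304 CPM in resting day 3 plusFoxp3 libraries against 80.8 to 84.1 CPM in their minusFoxp3 libraries, and 344 to 499 against 137 to 142 CPM in active cells. By day 28 it was 133 to 374 against 70.7 to 108 CPM in resting and 112 to 113 against 127 to 142 CPM in active cells. Its part in the differences above was not tested.

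For Lef1 and Id3 the contrast between active and resting untreated minusFoxp3 cells was wider than any tested contrast within a state. In untreated minusFoxp3 cells, Lef1 was at 47.6 and 47.1 CPM in active and 508 and 537 CPM in resting libraries, a difference of −3.47 (SE 0.20, adjusted p = 9.45e-12). Id3 was at 15.1 and 13.7 against 286 and 217 CPM (−4.12, SE 0.39, adjusted p = 2.8e-08). Tcf7 in active cells was 0.499-fold that in resting cells (SE 0.20 on the log2 scale, adjusted p = 0.000682), and Id2 was higher in active cells by 1.61 (SE 0.32, adjusted p = 0.000777). These 4 calls among 7 members compare with 13.4% of 20790 genes.

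Fewer members separated the states of Foxp3GFP Treg cells. There Lef1 alone was called, 1 of 7 against 3.12% of genes, at −1.01 (SE 0.19, adjusted p = 0.00194, and 0.0532 without active GFP Treg replicate 1). Id2 differed by 1.12 (SE 0.32, adjusted p = 0.0516, which passed with RLE size factors at 0.0396), Id3 by −0.58 (adjusted p = 0.459) and Tcf7 by −0.20 (0.705). In day 28 plusFoxp3 cells 4 of 7 were called against 5.3% of genes. Id2 was higher in active cells by 2.74 (SE 0.34), and Lef1, Id3 and Tcf7 differed by −1.59, −1.62 and −0.95. Tcf7 and Id3 lost the call without active day 28 plusFoxp3 replicate 1 (0.0728 and 0.151) or resting day 28 plusFoxp3 replicate 2 (0.0625 and 0.0713). Lef1 was the only member whose 22 active libraries (31.8 to 170.5 CPM) all lay below its 22 resting libraries (324 to 594 CPM), which held for 1.78% of genes.

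In the degron libraries, differences in the same genes were smaller or did not pass. In thymic cells Id2 was at 123, 119 and 120.2 CPM in TIR1 and 57.2, 60.9 and 47.9 CPM in WT libraries. Tcf7 was at 1866, 1917 and 1761 against 1460.3, 1651 and 1449 CPM. Id3 was at 698, 633 and 690.4 against 801, 849 and 784 CPM. Lef1 was at 710.5, 760.4 and 737 against 695, 748 and 681 CPM, with overlap. For Id2, Tcf7 and Id3 the groups did not overlap, against 13% of 14245 genes. The log2 differences were 1.12 (SE 0.12) for Id2, 0.28 (SE 0.07) for Tcf7 and −0.27 (SE 0.06) for Id3, and with edgeR adjusted p-values of 0.0606, 0.47 and 0.47 none passed. With edgeR 0 of the 14245 genes were called (0%), 1050 of them, 3 members included, having an unadjusted p under 0.05 (7.37%). With DESeq2, 3 of the 7 members, Id2, Tcf7 and Id3, were called against 1.12% of genes, with adjusted p-values of 7.64e-12, 0.00595 and 0.00692. Id2 also passed in edgeR without the count filter (0.00572) and with all 12 adult degron libraries in a single fit (0.0198). Summed proliferation genes were at 33.3 to 46.5 CPM in TIR1 and 12.7 to 29.8 CPM in WT libraries, and their part in this was not tested.

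Active degron cells had 1066, 1059.7 and 1326 CPM of Id2 in TIR1 and 1046, 977 and 865 CPM in WT libraries. Tcf7 was at 1239, 1402 and 1222 against 1106, 919 and 1028 CPM. These 2 genes did not overlap between groups, against 10.1% of 14554 genes, but the differences of 0.22 (SE 0.14) and 0.30 (SE 0.12) had edgeR adjusted p-values of 1. With edgeR 0 genes were called (0%), 672 genes (4.62%), 1 of them a member, having an unadjusted p under 0.05, and with DESeq2 22 genes (0.151%), none of them a member. Lef1 was at 193, 268 and 219 CPM in TIR1 and 204, 175 and 168 CPM in WT libraries, with overlap. Id3 was at 116, 185 and 164 CPM in TIR1 and 238, 109.8 and 69.9 CPM in WT libraries, with no separation. The Id2 effect in the thymus exceeded that in active cells by 0.90 (SE 0.18, adjusted p = 0.422 with edgeR, and 0.00232 with DESeq2). For this difference edgeR called 0 members (0% of genes), with 1 at an unadjusted p under 0.05 (6.66%), and DESeq2 called 1 (0.481%).

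Among infants, Id3 separated the titles. It was at 106, 111, 114 and 76.4 CPM in libraries titled TIR1 and 353, 342, 339 and 169 CPM in those titled WT. Id2 was at 154, 136, 128 and 134 against 49.7, 49.1, 56.0 and 132 CPM, and Tcf7 at 1689, 1716, 1760.2 and 2037 against 1378, 1400.1, 1339 and 1775 CPM. The last value of each WT list is replicate 4, which lay next to the libraries titled TIR1 for Id2 and Tcf7 and between the groups for Id3. With all 8 libraries 0 members passed, where edgeR called 3 of 16209 genes (0.0185%) and 2827 genes (17.4%), 4 of them members, had an unadjusted p under 0.05. The differences were −1.54 (SE 0.24, adjusted p = 0.0652) for Id3, 0.96 (SE 0.32, adjusted p = 0.176) for Id2 and 0.31 (SE 0.10, adjusted p = 0.143) for Tcf7. Without titled WT replicate 4 all 3 passed, at −1.74 (SE 0.12, adjusted p = 5.74e-06), 1.44 (SE 0.09, adjusted p = 3.64e-06) and 0.41 (SE 0.08, adjusted p = 0.00481). The share of all genes that passed in that fit is not given here. With all libraries Id3 passed with DESeq2 (6.03e-10, 6.85% of genes called) and with the replicate number as a block (0.00596). Groups did not overlap for Id3 and for Tcf3 (270.5 to 277 against 224 to 264 CPM), against 8.73% of genes. Summed proliferation genes were at 587 to 904 CPM in libraries titled TIR1 and 197 to 561 CPM in those titled WT, and their part was not tested.

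**Figure D5:**
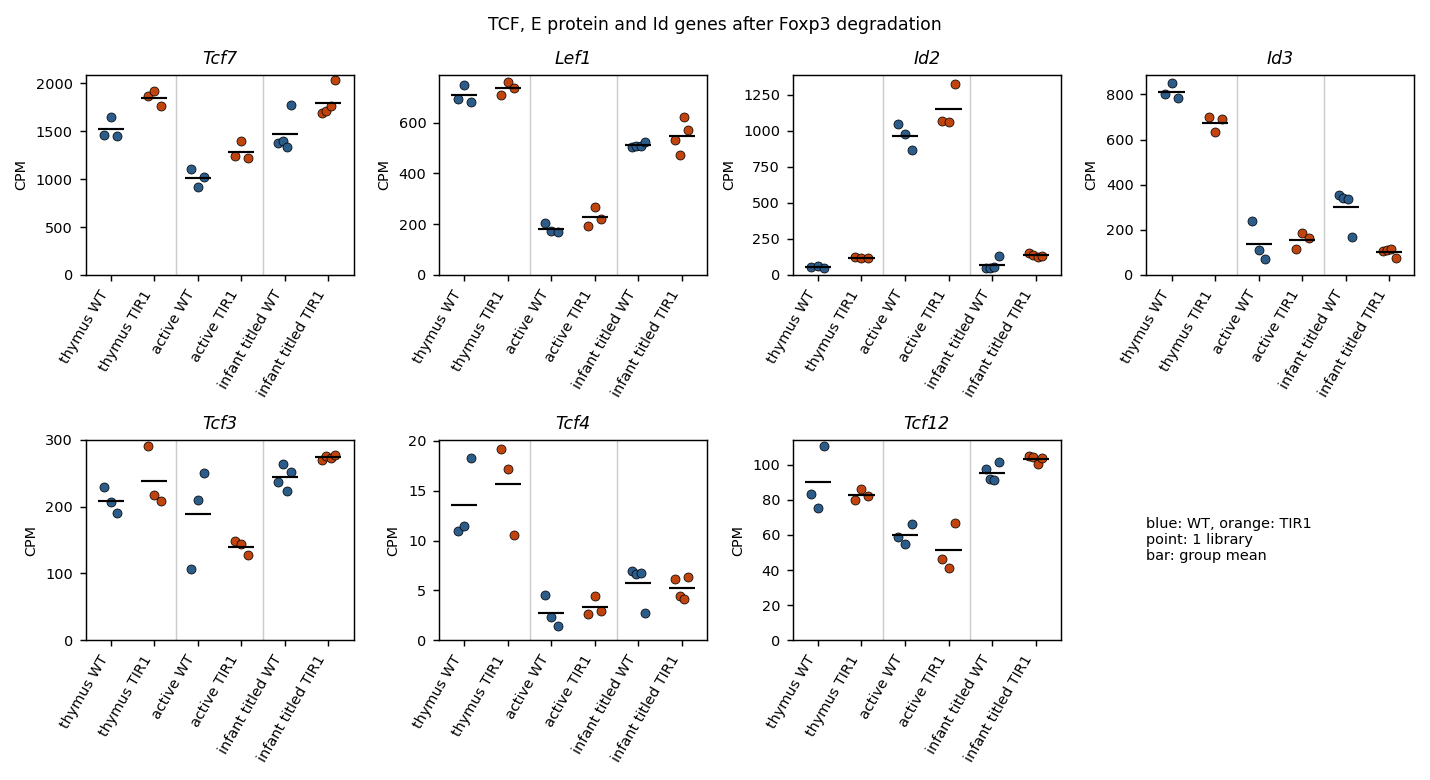
CPM of each gene (vertical axes, from 0, scaled per panel) in the 20 degron libraries, with 1 point per library, bars at group means, WT in blue and TIR1 in orange. Adult libraries are placed by the library name in each file and infants by title; thymic Id2 lies at 119 to 123 CPM in TIR1 and 47.9 to 60.9 CPM in WT libraries, and the infant library at 132 CPM of Id2 and 169 CPM of Id3 is titled WT replicate 4.

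In Id2, Id3, Lef1 and Tcf4, nascent thymic cells and active peripheral cells differed far more from each other than by genotype. For Tcf7, Tcf12 and Tcf3 the gap was narrower or absent. Between the WT groups 5 of 7 members were called against 23% of 14769 genes. Thymic cells had less Id2 (−4.22, SE 0.14, adjusted p = 8.91e-09) and more Id3 (2.45, SE 0.35), Lef1 (1.86, SE 0.12), Tcf4 (2.20, SE 0.47) and Tcf7 (0.49, SE 0.09). Tcf12 differed by 0.49 (SE 0.20, adjusted p = 0.1) and Tcf3 by 0.05 (SE 0.24). With the recorded genotypes, which exchange the WT and TIR1 files, Id2 differed by −3.32 and Tcf12 by 0.62 (adjusted p = 0.0468). Tcf4 rested on low values, 10.96, 11.4 and 18.3 CPM in thymic and 4.54, 2.29 and 1.42 CPM in active libraries, and Siglech, Klk1 and Cox6a2 were at 0 in all 12. The list of 6 plasmacytoid dendritic cell genes summed to 153 to 218 CPM in thymic WT and 48.2 to 73.9 CPM in active WT libraries, of which Pacsin1 made up 150.03 to 207 CPM and 48.2 to 72.8 CPM, and its part in the Tcf4 difference was not tested. Cd8b1 of the thymocyte list also differed between these groups, at 46.9 to 55.9 against 11.1 to 15.3 CPM, and its part was not tested either. The ratio of Id2 to Id3 per kilobase was 0.05 ± 0.00444 (SD, n = 3) in thymic WT and 6.29 ± 2.94 (SD, n = 3) in active WT cells.

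Of 16 beta-catenin and corepressor partners of TCF and LEF, averaged over days 3 to 28, 1 was higher and 1 lower in resting cells, Tcf7l2, another TCF gene (0.91, SE 0.19), and Tle4, a Groucho corepressor (−0.34, SE 0.09). In active cells 1 was higher, Bcl9l, a beta-catenin cofactor (0.39, SE 0.08), and 0 were lower. Of all genes 2.99% were called higher and 1.73% lower in resting cells, and 3.23% higher and 2.99% lower in active cells. With 16 genes, 1 call in a direction is too few to read as a result about the list. Ctnnb1, which encodes beta-catenin, was among the members of that list that did not pass in either. In the thymus against active contrast 3 of the 16 were higher, Tcf7l1, Tcf7l2 and Bcl9, and 2 lower, among them Axin2 (−1.13, SE 0.31), beside 23% of all genes. The median of the list was 0.05 in resting cells, against −0.02 over all genes.

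Of 14 genes of naive and resting T cells, 4 were lower and 0 higher in resting plusFoxp3 cells over days 3 to 28, with a list median of −0.34, where 1.73% of all genes were lower and 2.99% higher. They were Sox4 (−0.89, SE 0.16), Ccr7 (−0.43, SE 0.07), which encodes a lymph node homing receptor, S1pr1 (−0.33, SE 0.06), the receptor for exit from lymph nodes, and Foxp1 (−0.28, SE 0.07), a forkhead factor of quiescent T cells. In active cells 3 were higher, Satb1 (0.63, SE 0.14), Actn1 (0.59, SE 0.14) and Foxo1 (0.32, SE 0.06), and Bach2 was lower (−0.57, SE 0.15), with a list median of 0.10, where 6.22% of all genes were called. Of the 14, 2 differed in their effect between the states, Dapl1 (1.81, SE 0.48) and Actn1 (0.91, SE 0.19), beside 1.82% of all genes. Tcf7l2 of the partner list also differed, at −1.80 (SE 0.40).

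Of 6 genes known as targets of E proteins, 4 could be tested in resting and 3 in active cells, and Cxcr5, the follicle homing receptor, was the only one called over days 3 to 28, at 1.40 (SE 0.19) in resting and 2.72 (SE 0.22) in active cells. Of 7 follicular and stem-like genes, 1 was higher in resting and 3 in active cells, Cxcr5 again, Icos (0.59, SE 0.10), a costimulatory receptor, and Slamf6 (0.58, SE 0.08), with 0 lower. Of all genes 2.99% were higher in resting and 3.23% in active cells. Of 8 other helix-loop-helix genes, 7 could be tested and only Bhlhe40 was called, at −0.82 (SE 0.22) in active cells, where 2.99% of all genes were lower. Bhlhe40 was also lower in active Foxp3GFP Treg than in untreated minusFoxp3 cells (−1.61, SE 0.45).

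Likeness of pattern was measured as the Pearson r of log2 CPM over the 22 group means of the restoration experiment, among 12399 genes with at least 100 read pairs on average. These means share their libraries and the division into resting and active cells, so the r values are descriptions only. Lef1 was most like Nsg2, Gramd3 and Igf2r (r = 0.991, 0.988 and 0.988) and Id3 most like Ptp4a3, Ift80 and Fas (0.992, 0.990 and 0.987). Id2 was most like Susd3, Bcl2a1d and St6galnac3 (0.977, 0.970 and 0.968), and Tcf7 most like Gm45552, Rasgrp2 and Tdrp (0.945, 0.938 and 0.937). For Tcf4 the leading genes were H2-Aa, Litaf and H2-Eb1 (0.856, 0.833 and 0.815), of which H2-Aa and H2-Eb1 encode MHC class II chains. Tcf12 was most like Tmem123, Pals1 and Vrk2 (0.949, 0.924 and 0.917) and Tcf3 most like Srsf4, Ing5 and Usp4 (0.892, 0.885 and 0.871). Among the members themselves r was 0.965 for Lef1 with Id3, −0.892 for Id2 with Id3 and −0.812 for Lef1 with Id2. It was 0.546 for Tcf7 with Lef1 and −0.118 for Tcf7 with Id2.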

How the data were processed

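RNA-seq libraries were made by the study from sorted cells with a low-input polyA kit (SMART-Seq v4) and aligned to mm39. The authors deposited 1 table of raw counts per library, made with featureCounts 2.0.3 and GENCODE vM30 per the file headers: read pairs per gene, both ends mapped, without regard to strand. The 20 degron tables were limited to primary alignments of high mapping quality without chimeras, and the other 44 were not, so levels were tested only within each set. Levels were scaled here to the total of each library (CPM).

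The counts as deposited were tested with edgeR 4.0.16 (R 4.3.3; TMM normalization, quasi-likelihood F test, robust), on genes with a mean count of at least 10, with Benjamini-Hochberg adjustment over all genes and a threshold of 0.05. Each degron contrast was fitted on its own libraries, each state of the restoration experiment on its 22 libraries with group means, and contrasts between states on 44. The standard error is the log2 fold change divided by the square root of F. Alternatives were DESeq2 1.42.0, RLE size factors, no count filter, a replicate block, fits on only the libraries compared, and leaving out each library. The scripts were tested on simulated data. The members and gene lists were chosen with earlier results of these data known, and the named genes of each list were the up to 4 called genes with the largest fold change and at least 100 counts on average. Genes named for likeness were the 3 with the highest r.

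Replicates are separate samples in the labels. The paper calls those of the thymic, active degron, plusFoxp3 and minusFoxp3 groups independent biological replicates. Where nothing says that replicates came from separate animals, p-values measure only the spread between these samples. No pair of replicates was a duplicate: the lowest chi-square per gene over 46 pairs was 17.3. Whether libraries with the same number deviate together from their group means was checked by correlation. It was −0.0646 to 0.0337 for the 10 pairs of TIR1 and WT libraries in 3 comparisons, and −0.0779 to 0.148 for the 10 comparisons of plusFoxp3 with minusFoxp3. Library names of thymic and active degron cells share a number, but the labels do not say that it marks an animal, and the 6 correlations were 0.000443 to 0.024. Between resting and active libraries of the same day and genotype all 11 were positive (0.00189 to 0.255) and 9 passed 0.1. Since not every pair passed, no block was used in the main fits. Their tests between states or tissues therefore take no account of a possible pairing. A block by number within genotype and day was added after seeing the data. For the 12 adult degron files the header decided the group, and for infants the title. A result for 1 gene of the E protein target list is not reported here.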

Additional observations from a re-analysis of the deposited data

Results flagged for a closer look

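In the infant group titled WT, replicate 4 lay far from the other 3 libraries for 4 of the members: at 1775 CPM for Tcf7, 132 CPM for Id2, 169 CPM for Id3 and 2.69 CPM for Tcf4. Its gap to the nearest library took 0.860 to 0.932 of the range of the group. Of the 16 groups of values checked in this way 4 stood out, all of them through this library. Chance alone gives about 1 group in 20. These 4 share a library and are not separate observations, so that rate cannot be set against them. It had 561 CPM of summed proliferation genes against 197 to 299 CPM in the other 3.

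The effect of restored Foxp3 over days 3 to 28 differed between active and resting cells for Lef1 by 0.96 on the log2 scale (edgeR adjusted p = 0.000138) and for Id3 by 1.08 (adjusted p = 0.0172), by a test of the difference itself. Both calls held when each of the 32 libraries was left out in turn, with adjusted p-values of 1.24e-05 to 0.000572 for Lef1 and 0.0049 to 0.0472 for Id3.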

How the results depend on the processing

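Counts of members called (of 7) depended on the tool and filter. With DESeq2 they were 3 in the thymus (0 with edgeR), 1 in infants (0), 1 for the thymus against active difference (0), 1, 2 and 2 on resting days 3, 7 and 14 (0, 0 and 1), 2 on active day 7 (0), 2 between the states of GFP Treg cells (1) and 1 for the difference of the day 28 effect (0). In the same order DESeq2 called 1.12%, 6.85%, 0.481%, 1.09%, 0.673%, 1.43%, 2.38%, 5.58% and 0.322% of all genes. Without the count filter they were 1 in the thymus, 1, 2 and 2 on resting days 3, 7 and 14, 1 for resting GFP Treg against day 28 plusFoxp3 cells, 3, 4 and 2 on active days 3, 7 and 14, 2 for active GFP Treg against day 28 plusFoxp3 cells, 2 between the states of GFP Treg cells, 3 for the difference of the day 28 effect and 4 for that of the mean effect. In the same order the shares of all genes called were 0.0217%, 1.35%, 1%, 1.35%, 0.667%, 1.17%, 2.02%, 1.72%, 2.47%, 2.76%, 0.98% and 2.23%. Fits on only the 4 libraries compared gave 1 on resting day 3, 1 on resting day 28, 2 on active day 14, 1 on active day 28 and 0 for active GFP Treg against day 28 plusFoxp3 cells. In these fits 1.01%, 0.136%, 0.939%, 0.929% and 0.423% of all genes were called. The fit of all 12 adult degron libraries gave 1 in the thymus (0.0406% of genes), and RLE size factors gave 2 between the states of GFP Treg cells (3.21%). Without the 5 libraries with Siglech over 10 CPM, an alternative chosen after seeing the data, 2 were called between the states of GFP Treg cells (3.72% of genes). This choice leaves 1 minusFoxp3 library on each day of active cells, so counts of single days are not given. On active day 7 the effects were then 1.22 for Lef1, −1.76 for Id2, 1.66 for Id3 and 0.75 for Tcf3. The causes were not tested.

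Pairing by replicate number was not established. The replicate block gave 1 member in infants (Id3, −1.50, adjusted p = 0.00596, with 0.0432% of all genes called). It gave 2 on resting day 14 (0.424%) and 2 between the states of GFP Treg cells (4.54%), and changed no other count by more than 1.5 times. A replicate block within genotype and day, for contrasts between tissues or states, gave 2 members between the states of GFP Treg cells (Id2 added, 6.03% of all genes). It gave 2 for the difference of the day 28 effect (Lef1 1.22 and Id3 1.75, 0.139%) and 3 for that of the mean effect (Id2 added, 0.58, adjusted p = 0.0199, 3.14%). The main fits called 3.12%, 0.0818% and 1.82% of all genes in these contrasts. No call of a member was lost with this block.

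With each library left out in turn, counts ran from 0 to 3 in infants, 0 to 2 on resting day 0, 0 to 1 on day 14, 1 to 2 on day 28, 2 to 3 for the resting mean and 2 to 2 for resting GFP Treg against untreated cells. In active cells they ran from 0 to 4 on day 7, 0 to 0 on day 14, 1 to 2 on day 28, 3 to 5 for the mean, 3 to 4 for GFP Treg against untreated cells and 0 to 1 against day 28 plusFoxp3 cells. Between states they ran from 4 to 5 in untreated minusFoxp3, 0 to 1 in GFP Treg and 2 to 4 in day 28 plusFoxp3 cells, and 2 to 3 for the difference of the mean effect. Thymus against active WT stayed at 5, and all other comparisons stayed at 0. With 2 libraries per group the single-day effects rest on few samples, and a lone library left after such a removal is assumed to vary like the other groups. No called difference changed sign. The shares of all genes called in fits with a library left out are not given. These ranges show only how the counts varied and are not results about the members.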
